A study of Mus musculus with 12 samples.

Results

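Transcripts of 39 genes that encode the non-collagen part of the extracellular matrix, with a pair of matrix metalloproteinases and their inhibitors, were followed in mouse tibialis anterior, a fast muscle at the front of the lower hindlimb. The members were taken by gene symbol and all 39 were found among the 13865 genes listed in the 3 deposited tables. They comprised 7 proteoglycans, 10 proteins of elastic fibres and microfibrils, 8 proteins of the basement membrane, 9 adhesive and matricellular proteins, and 5 proteases and protease inhibitors. Total RNA was sequenced from 12 C57BL/6J muscle samples in 3 groups of 4. KPC_UA samples came from mice that bore KPC tumours and ate chow supplemented with ursolic acid, a triterpenoid of fruit peel. KPC samples came from mice with KPC tumours on standard chow. Sham samples came from mice without tumours on standard chow. KPC cells are a mouse pancreatic cancer line, and per the labels' protocols they were delivered in saline into the surgically exposed pancreas, so the tumour is grown from transplanted cells rather than arising in the animal. The labels give neither the age and sex of the mice, nor the dose of ursolic acid, nor what Sham mice were injected with. Whether the 4 samples of a group come from different mice is not stated, and p-values therefore speak only of the spread among the samples at hand, which may be technical. The study compared tumour-bearing with tumour-free muscle and asked about ursolic acid in tumour-bearing mice.

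The matrix of skeletal muscle surrounds each fibre with a basement membrane, a sheet built from laminins, nidogens, perlecan and collagen IV, and fills the space between fibres with collagen fibrils. Small leucine-rich proteoglycans coat those fibrils and bind growth factors, fibrillin microfibrils carry elastin and hold latent TGF-beta, and matricellular proteins such as SPARC modulate how cells attach. Metalloproteinases cleave these proteins, and tissue inhibitors of metalloproteinases (TIMPs) hold the enzymes in check. In muscle most of the interstitial components are made by fibroblasts and fibro-adipogenic progenitors, while fibres, vessels and nerve sheaths add to the basement membrane.

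Levels are normalised read counts, that is reads per gene divided by a size factor for each library, on a single scale over all 12 libraries. The listed genes took between 22.3 and 32.0 M reads in each library. The muscle fibre transcript Ckm, muscle creatine kinase, had 419441, 652692, 587447 and 569788 normalised reads in KPC_UA replicates 1 to 4, 390122, 481685, 538873 and 559485 in KPC replicates 1 to 4 and 537266, 527089, 527398 and 429835 in Sham replicates 1 to 4, so this fibre transcript was abundant in every library. The labels name no batch. KPC replicate 2 and KPC_UA replicate 1 stood apart from their groups for these genes. The median member in KPC replicates 1 to 4 lay -1.11, -0.45, -0.99 and -0.99 from the Sham mean on the log2 scale. In KPC_UA replicates 1 to 4 it lay -0.019, -0.39, -0.50 and -0.54 from that mean, so KPC_UA replicate 1 lay within the Sham libraries, at -0.047, -0.019, -0.20 and 0.21.

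Promoter sequences were matched for 25 of the 39 members in the RefSeq table (GRCm38.p6), and the 250 bases before the most upstream start were searched on both strands for a few short motifs. The GC box GGGCGG was present in 13 of the 25 member promoters, or 52%, against 33.0% of all 27025 promoters in the table. The TATA box TATAAA was present in 2 of 25 (Aspn and Ogn), or 8%, against 12.98% of all. The AP-1 letters TGANTCA were present in 1 of 25 (Tnxb), or 4%, against 6.85% of all, and the FOXO letters GTAAACA in 0 of 25, against 3.06% of all. These letters are matches in a window and not binding sites. Sparc, the member with the most reads per kilobase, fell in KPC muscle, as did Hspg2 and Tnxb. Lamb2, a laminin beta chain, did not pass the test although its relative Lamb1 did. The promoters of these 4 members, Sparc, Hspg2, Tnxb and Lamb2, are printed below. Each runs 5′ to 3′ on the strand of the gene, ends at the base before the start, and has its motifs in capitals. Sparc is on the minus strand at chr11:55420081-55420330, Hspg2 on the plus strand at chr4:137468553-137468802, Tnxb on the plus strand at chr17:34670285-34670534 and Lamb2 on the plus strand at chr9:108479612-108479861.
Sparc: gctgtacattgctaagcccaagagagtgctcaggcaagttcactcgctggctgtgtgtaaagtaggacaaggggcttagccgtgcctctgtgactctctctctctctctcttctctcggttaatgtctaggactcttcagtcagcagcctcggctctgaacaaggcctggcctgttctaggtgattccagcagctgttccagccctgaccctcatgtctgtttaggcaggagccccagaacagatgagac
Hspg2: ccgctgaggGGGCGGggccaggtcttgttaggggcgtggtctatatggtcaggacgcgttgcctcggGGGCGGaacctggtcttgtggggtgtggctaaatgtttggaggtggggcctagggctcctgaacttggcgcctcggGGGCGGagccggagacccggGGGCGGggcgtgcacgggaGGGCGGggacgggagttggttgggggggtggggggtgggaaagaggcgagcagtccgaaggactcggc
Tnxb: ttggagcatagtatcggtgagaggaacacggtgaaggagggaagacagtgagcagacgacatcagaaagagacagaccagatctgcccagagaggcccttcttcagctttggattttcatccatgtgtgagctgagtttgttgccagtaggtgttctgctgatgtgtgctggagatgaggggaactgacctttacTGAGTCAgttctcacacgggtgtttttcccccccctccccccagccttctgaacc
Lamb2: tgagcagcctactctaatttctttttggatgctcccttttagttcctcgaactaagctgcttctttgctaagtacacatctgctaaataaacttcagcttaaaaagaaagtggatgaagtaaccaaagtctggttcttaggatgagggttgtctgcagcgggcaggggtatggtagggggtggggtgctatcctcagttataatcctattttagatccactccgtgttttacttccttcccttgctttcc
The Hspg2 promoter held GC boxes at 5 places and was 70.0% G and C, and the Tnxb promoter held a single AP-1 match and was 52.4% G and C. The promoters of Sparc, at 54.0% G and C, and Lamb2, at 43.6%, held none of the 4 motifs. The GENCODE span of Sparc begins farther upstream than the RefSeq start used here, and those of Hspg2 and Lamb2 begin inside the printed window. The median was 55.6% G and C over the 25 member promoters and 52.0% over all promoters.

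Many matrix transcripts had lower relative levels in muscle of KPC mice than in Sham muscle. Of the 39 members, 9 fell and 0 rose in KPC against Sham (limma, Benjamini-Hochberg adjusted p under 0.05 over 13542 genes), whereas 0.827% of all genes tested fell and 0.354% rose. The 9 were the microfibril genes Fbn1, Mfap5 and Ltbp4, the basement membrane genes Hspg2 and Lamb1, the matricellular genes Sparc and Tnxb, the protease gene Mmp2 and the inhibitor gene Timp2. The median log2 fold change was -0.80 over the members and 0.0075 over all genes, and 37 of 39 members had a negative value against 49.5% of all genes, and 2 a positive one against 50.5%. In 21 of 39 members every KPC library lay below every Sham library, a pattern found in 9.11% of all genes, and in 0 members did every KPC library lie above, a pattern of 10% of all genes. DESeq2 on the recovered reads called 18 members lower and 0 higher, with 5.03% of all genes lower and 6.79% higher, and the edgeR quasi-likelihood test called 10 lower, with 0.894% of all genes lower. The limma calls depended on single libraries: leaving out KPC replicate 3, KPC replicate 4 or any one Sham replicate left 0 genes of the whole table past the threshold, while 11 members passed without KPC replicate 1, where 1.8% of all genes were lower, and 21 without KPC replicate 2, where 5.54% were lower. DESeq2 called 11 to 22 members lower when each library was left out in turn, with 2.14% to 9.19% of all genes lower in these fits.

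**Figure D1:**
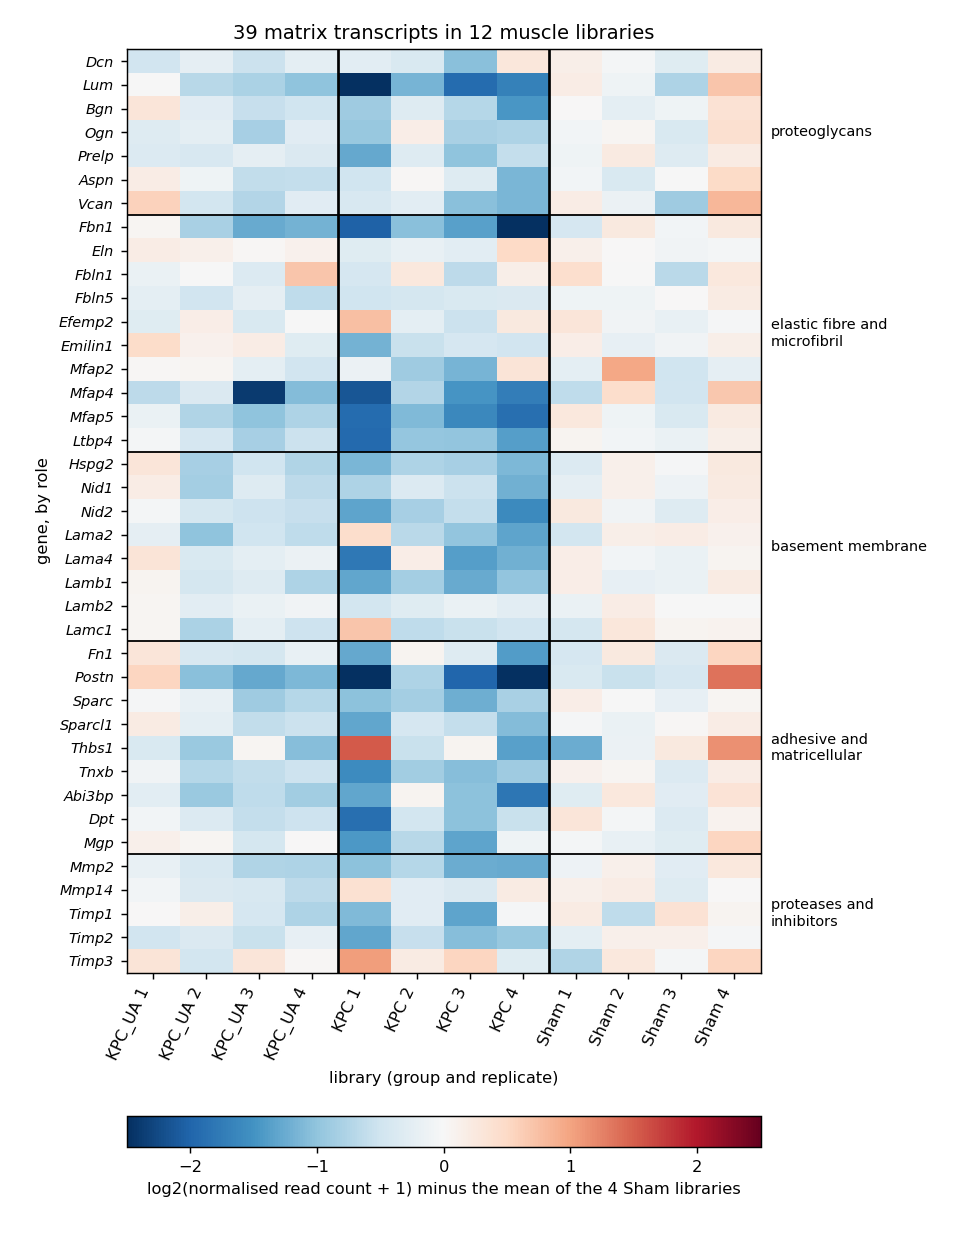
Each row is a member and each column a library, and colour gives log2(normalised read count + 1) minus the mean of the 4 Sham libraries, with values beyond 2.5 drawn in the end colour. Most members are blue in the 4 KPC columns, with KPC replicate 2 paler than the rest, and Thbs1, Timp3, Lamc1, Lama2 and Efemp2 are red in KPC replicate 1.

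In bulk tissue, fewer cells of a type and less RNA per cell cannot be told apart, and markers of several cell types moved with these genes. Of 14 markers of fibroblasts and fibro-adipogenic progenitors, 13 were tested in KPC against Sham with a median log2 fold change of -1.10, 1 fell by limma (Smoc2) and 6 fell by DESeq2. Their summed level ranged from 7319 to 12188 in KPC libraries and from 10097 to 14825 in Sham libraries, so the sums overlapped. Of 8 tendon markers, 7 were tested with a median of -1.87, 2 fell by limma (Tnmd and Thbs4) and 6 by DESeq2, and their summed level was 475 to 1612 in KPC against 2314 to 3304 in Sham libraries. Some tendon markers, Kera among them, and the fibroblast marker Smoc2 are also on the list of other matrix proteins used below. None of the fibroblast or tendon markers listed was at 0 in any library. Endothelial markers had a median of -0.077 over 10 genes with 0 calls by limma and 1 lower and 2 higher by DESeq2, and muscle fibre markers a median of -0.091 over 8 genes with 0 calls by limma and 1 lower by DESeq2. Smooth muscle and pericyte markers had a median of -0.27 over 9 genes, of which 1 (Cspg4) fell by limma and 2 by DESeq2. Adipocyte markers had a median of -1.86 over 6 genes, of which 3 (Plin1, Cfd and Cidec) fell by limma and 5 by DESeq2, with Lep and Retn unlisted or at 0 in some libraries. Of the 6, 1 had a positive log2 fold change. The summed level of adipocyte markers was 2183 to 3772 in KPC against 2726 to 4045 in Sham libraries, so these sums overlapped. Macrophage markers had a median of 0.32 over 10 genes and erythroid markers of 1.84 over 6, with 0 limma calls in either list. DESeq2 called 4 of the 6 erythroid markers higher and 0 macrophage markers. The part of these cell types in the changes of the matrix genes was not tested.

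**Figure D2:**
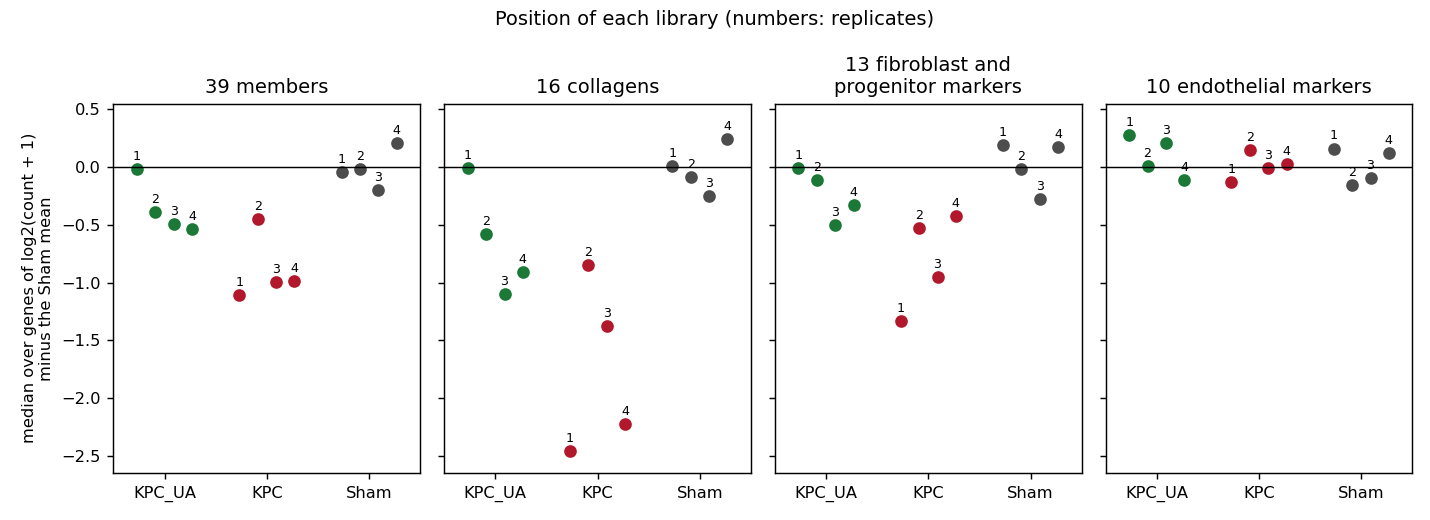
Points are libraries, numbered by replicate, and the vertical axis is the median over the genes of a list of log2(normalised read count + 1) minus the Sham mean. All 4 KPC libraries lie below all 4 Sham libraries for the 39 members, the 16 collagens and the 13 fibroblast and progenitor markers, while the 10 endothelial markers overlap.

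Among the proteoglycans, 0 of 7 passed limma in KPC against Sham, 3 of 7 (Lum, Bgn and Prelp) were called lower by DESeq2, and the group median was -0.71. Lum encodes lumican, a keratan sulfate proteoglycan that spaces collagen fibrils. It had 43.5, 134, 78.7 and 91.9 normalised reads in KPC replicates 1 to 4, against 340.4, 280.4, 174 and 488 in Sham replicates 1 to 4. Every KPC library lay below every Sham library, and the log2 fold change was -1.89 (SE 0.39, limma adjusted p = 0.0503, DESeq2 adjusted p = 0.000171), just outside the limma threshold. Bgn, biglycan, a small proteoglycan that carries chondroitin or dermatan sulfate chains, had 324, 484, 368 and 220.5 in KPC against 605, 508, 557 and 771 in Sham libraries. The Bgn groups did not overlap, with a log2 fold change of -0.85 (SE 0.25, limma adjusted p = 0.108). Dcn, decorin, the closest relative of biglycan and a binder of TGF-beta, had 2547, 2339, 1479.8 and 3746 in KPC against 3414, 2973, 2469.9 and 3515 in Sham libraries. The highest Dcn value of all belonged to KPC replicate 4 and the groups overlapped (log2 fold change -0.36, SE 0.27, limma adjusted p = 0.402). The other 4 members, Ogn, Prelp, Aspn and the large proteoglycan Vcan, had log2 fold changes from -0.80 to -0.49.

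Of the elastic fibre and microfibril genes, 3 of 10 fell by limma and 4 by DESeq2, with a group median of -0.57. Fbn1 (chromosome 2, 125300594 to 125507993, minus strand) encodes fibrillin-1, the backbone of the microfibril. It had 182, 358, 289 and 119 normalised reads in KPC replicates 1 to 4, against 550.5, 882, 702 and 877 in Sham replicates 1 to 4. No KPC library reached the Sham range, and Fbn1 fell to 237 ± 107 in KPC muscle, against 753 ± 159 in Sham muscle (SD, n = 4 each), a log2 fold change of -1.76 (SE 0.33, limma adjusted p = 0.0429). Exons of Fbn1 overlap those of Gm9913 on the other strand over 20.1% of their length. The use of strand in counting is not given, so how far the overlap affects the Fbn1 count is not known. Mfap5 (chromosome 6, 122505845 to 122529290, plus strand), a microfibril-associated glycoprotein that binds fibrillin, had 42.2, 75.2, 53.2 and 43.6 in KPC against 198, 151, 125 and 192 in Sham libraries. With no overlap, it fell by 1.63 on the log2 scale (SE 0.26, limma adjusted p = 0.0371). Ltbp4 (chromosome 7, 27305136 to 27337692, minus strand), which binds latent TGF-beta and takes part in elastic fibre assembly, had 473, 935, 917 and 702 in KPC against 1923, 1743, 1632 and 2028 in Sham libraries. All KPC values were below all Sham values, and the log2 fold change was -1.32 (SE 0.23, limma adjusted p = 0.0379).

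Elastin itself and several proteins that attach to it did not pass the test. Eln, the elastic core protein, had 394, 429, 407 and 687 normalised reads in KPC against 529, 488, 458 and 471 in Sham libraries, with KPC replicate 4 highest of all, and a log2 fold change of -0.063 (SE 0.20, limma adjusted p = 0.864). Efemp2, which encodes fibulin-4, had 148, 73.0, 59.9 and 103 in KPC against 108, 81.5, 75.6 and 85.4 in Sham libraries. These groups overlapped at both ends (log2 fold change 0.053, SE 0.29, limma adjusted p = 0.922), and 4.57% of its exon length is shared with Mus81 on the other strand. The signs of Eln and Efemp2 each turned when certain single libraries were left out. Mfap4, another microfibril-associated protein, had a log2 fold change of -1.52 and was called by DESeq2 and not by limma (limma adjusted p = 0.0995, DESeq2 adjusted p = 0.0146). Emilin1, Mfap2, Fbln5 and Fbln1 had log2 fold changes from -0.66 to -0.17 and passed neither test.

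In the basement membrane group, 2 of 8 members fell by limma, 4 by DESeq2, and the median was -0.84. Hspg2 (chromosome 4, 137468769 to 137570630, plus strand) encodes perlecan, the large heparan sulfate proteoglycan of the basement membrane. It had 2183, 2852, 2728 and 2215 normalised reads in KPC replicates 1 to 4, against 3804, 5316, 4748 and 5727 in Sham replicates 1 to 4. Its groups did not overlap, and it fell by 0.97 on the log2 scale (SE 0.19, limma adjusted p = 0.0433). Nid2, nidogen-2, which links laminin to the collagen IV network, had 59.3, 83.1, 98.7 and 49.0 in KPC against 176, 141, 119 and 167 in Sham libraries. All KPC values lay below all Sham values, but the log2 fold change of -1.08 (SE 0.27) passed DESeq2 and not limma (limma adjusted p = 0.0762, DESeq2 adjusted p = 0.00616). Nid2 shares 8.45% of its exon length with Rtraf, a listed gene on the other strand. Nid1 had a log2 fold change of -0.72 (limma adjusted p = 0.109, DESeq2 adjusted p = 0.0364).

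Laminin chains join as alpha, beta and gamma trimers, and 1 of the 5 measured fell. Differences between the chains were not tested. Lamb1 (chromosome 12, 31265234 to 31329644, plus strand), the beta 1 chain, had 158, 218, 164 and 198 normalised reads in KPC replicates 1 to 4, against 443, 338, 348 and 455 in Sham replicates 1 to 4. The groups lay well apart, with a log2 fold change of -1.10 (SE 0.19, limma adjusted p = 0.0379). Lamb2, the beta 2 chain enriched at neuromuscular junctions, had 2977, 3345, 3675 and 3418 in KPC against 3695, 4677, 4074 and 4091 in Sham libraries. Every KPC value was below the lowest Sham value, KPC replicate 3 by a small margin, and the log2 fold change was -0.30 (SE 0.15, limma adjusted p = 0.243). Lamc1, the gamma 1 chain found in most laminins, had 3247, 1292, 1377 and 1448 in KPC against 1476, 2461, 2121 and 2128 in Sham libraries. KPC replicate 1 was the highest of all 8 libraries and the other 3 KPC libraries were below the Sham range, so the groups overlapped (log2 fold change -0.25, SE 0.30, limma adjusted p = 0.613). Lama2, the alpha 2 chain of muscle laminin whose loss causes a congenital muscular dystrophy, was also highest of all 8 libraries in KPC replicate 1. It had 1164, 538, 429 and 343 in KPC against 619.8, 951, 975 and 925 in Sham libraries. Its log2 fold change was -0.63 with all libraries (limma adjusted p = 0.269) and -0.99 without KPC replicate 1, where it passed limma. Lama4, the alpha 4 chain of vessels and nerve, had 98.8, 381, 131 and 148 in KPC against 382, 327, 305 and 357 in Sham libraries. KPC replicate 2 lay inside the Sham range and the other 3 below it (log2 fold change -1.05, SE 0.36, limma adjusted p = 0.137). Lama2, Lama4 and Lamb2 were chosen for description after their values were seen.

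Matricellular and adhesive genes included 2 of 9 that fell by limma and 5 by DESeq2, around a median of -0.98. Sparc (chromosome 11, 55394500 to 55423183, minus strand) encodes a collagen-binding glycoprotein, also called osteonectin. It had 2101, 2348, 1825 and 2432 normalised reads in KPC replicates 1 to 4, against 4784, 4217, 3709.8 and 4403 in Sham replicates 1 to 4. The highest KPC library was far below the lowest Sham library, and Sparc fell to 2176 ± 273 in KPC muscle, against 4279 ± 446 in Sham muscle (SD, n = 4 each), a log2 fold change of -0.98 (SE 0.16, limma adjusted p = 0.0371). Tnxb (chromosome 17, 34670535 to 34719815, plus strand) encodes tenascin-X, which bridges collagen fibrils and is lost in a form of Ehlers-Danlos syndrome. It had 389.9, 639.8, 559.8 and 626 in KPC against 1249, 1203, 924 and 1331 in Sham libraries. It fell by 1.10 on the log2 scale with no overlap (SE 0.21, limma adjusted p = 0.0429). Sparcl1, the relative of SPARC also called hevin, had a log2 fold change of -0.85 and passed DESeq2 and not limma (limma adjusted p = 0.0821, DESeq2 adjusted p = 0.0122).

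Postn, chosen after its values were seen, had the most negative log2 fold change of all members, -2.25 (SE 0.61). Periostin, its product, is an adhesive protein of collagen-rich tissue and of repair. It had 29.0, 103, 44.3 and 13.01 normalised reads in KPC against 136, 121, 133 and 457 in Sham libraries. The groups did not overlap but both were uneven, with Sham replicate 4 far above its group, and the difference passed DESeq2 and not limma (limma adjusted p = 0.0917, DESeq2 adjusted p = 0.00806). Mgp, matrix Gla protein, an inhibitor of calcification, had 107, 179.6, 115 and 269 in KPC against 280.4, 253, 235 and 423 in Sham libraries. KPC replicate 4 lay inside the Sham range (log2 fold change -0.89, SE 0.32, limma adjusted p = 0.144). Thbs1, thrombospondin-1, which activates latent TGF-beta, had 389, 90.9, 141 and 51.3 in KPC against 55.9, 120.1, 159 and 297 in Sham libraries. Both groups spread over several fold and overlapped, and the log2 fold change of -0.080 (SE 0.63, limma adjusted p = 0.946) turned to 0.079 by DESeq2. Fn1, Abi3bp and Dpt had log2 fold changes of -0.73, -1.02 and -0.98, of which only that of Dpt passed DESeq2 (adjusted p = 0.0469).

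**Figure D3:**
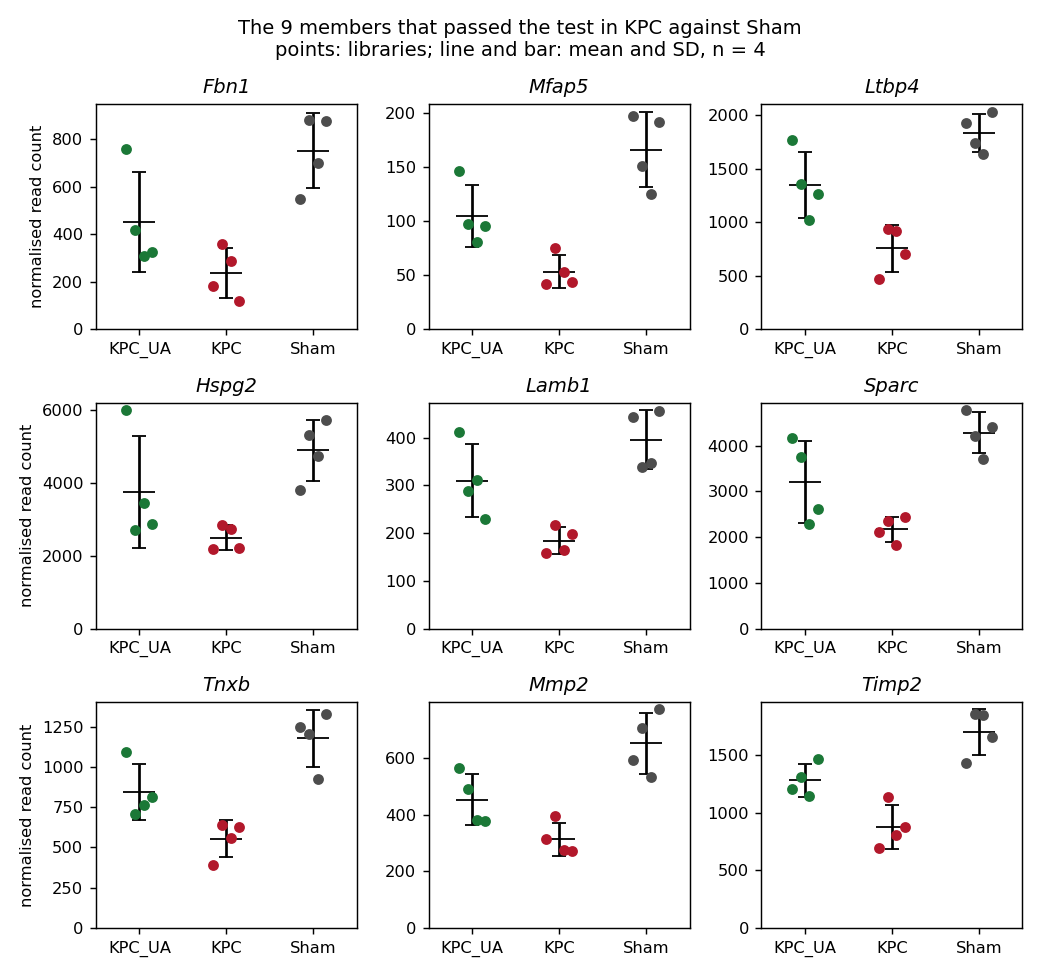
Panels show the 9 members that passed limma in KPC against Sham, with normalised read count on the vertical axis, points for libraries and the mean with SD (n = 4). KPC libraries lie below Sham libraries in every panel, and KPC_UA libraries overlap those of KPC, of Sham or of both, with KPC_UA replicate 1 the highest of its group in all panels but that of Timp2.

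Among proteases and inhibitors, 2 of 5 fell by both limma and DESeq2 and the median was -0.68. Mmp2 (chromosome 8, 92827291 to 92853420, plus strand) encodes gelatinase A, a fibroblast enzyme that cleaves denatured collagen and basement membrane. It had 315, 394, 274 and 270.2 normalised reads in KPC replicates 1 to 4, against 594, 707, 533 and 771 in Sham replicates 1 to 4. The groups were separate and the log2 fold change was -1.06 (SE 0.19, limma adjusted p = 0.0394). Mmp14, the membrane-bound metalloproteinase that activates the Mmp2 product, had 285, 179.6, 169.6 and 252 in KPC against 241, 249, 174 and 222 in Sham libraries. These overlapped throughout (log2 fold change -0.025, SE 0.22, limma adjusted p = 0.953), and the sign turned when certain single libraries were left out. Timp2 (chromosome 11, 118301069 to 118355740, minus strand), the inhibitor that also bridges the inactive Mmp2 product to its activator, had 689, 1136, 807 and 870.4 in KPC against 1432, 1856, 1844 and 1658 in Sham libraries. It fell by 0.97 on the log2 scale with no overlap (SE 0.19, limma adjusted p = 0.0454), and missed the threshold when genes under a mean of 50 were left out. Timp3, the inhibitor bound to the matrix and chosen after its values were seen, had 2038, 1140.5, 1427 and 795 in KPC against 584, 1178, 960.3 and 1439 in Sham libraries. KPC replicate 1 was highest and the groups overlapped, with the most positive log2 fold change of any member, 0.36 (SE 0.33, limma adjusted p = 0.496). Exons of Timp3 overlap those of Syn3 on the other strand over 21.3% of their length. Timp1 was low, with 4.43 to 12.2 in KPC against 7.72 to 16.4 in Sham libraries (log2 fold change -0.68, limma adjusted p = 0.335).

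Ratios within each library, per kilobase of exon, set partner genes side by side. They were chosen after the values were seen and carry no test. Mmp2 over Mmp14 was 4.73, 5.07, 4.08 and 4.77 in KPC_UA replicates 1 to 4, 1.96, 3.88, 2.85 and 1.90 in KPC replicates 1 to 4 and 4.36, 5.03, 5.40 and 6.14 in Sham replicates 1 to 4. KPC libraries were below all libraries of both other groups. Timp2 over Timp3 was 2.04, 3.78, 1.96 and 3.02 in KPC_UA, 0.707, 2.08, 1.18 and 2.29 in KPC and 5.13, 3.29, 4.01 and 2.41 in Sham libraries, so KPC and Sham libraries did not overlap. Lamb1 over Lamb2 was 0.0591, 0.0516, 0.0525 and 0.0360 in KPC_UA, 0.0326, 0.0399, 0.0274 and 0.0354 in KPC and 0.0735, 0.0443, 0.0523 and 0.0682 in Sham libraries, again with no overlap of KPC and Sham. Lama4 over Lama2 ranged from 0.115 to 0.958 in KPC libraries and from 0.423 to 0.834 in Sham libraries, and these overlapped.

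**Figure D4:**
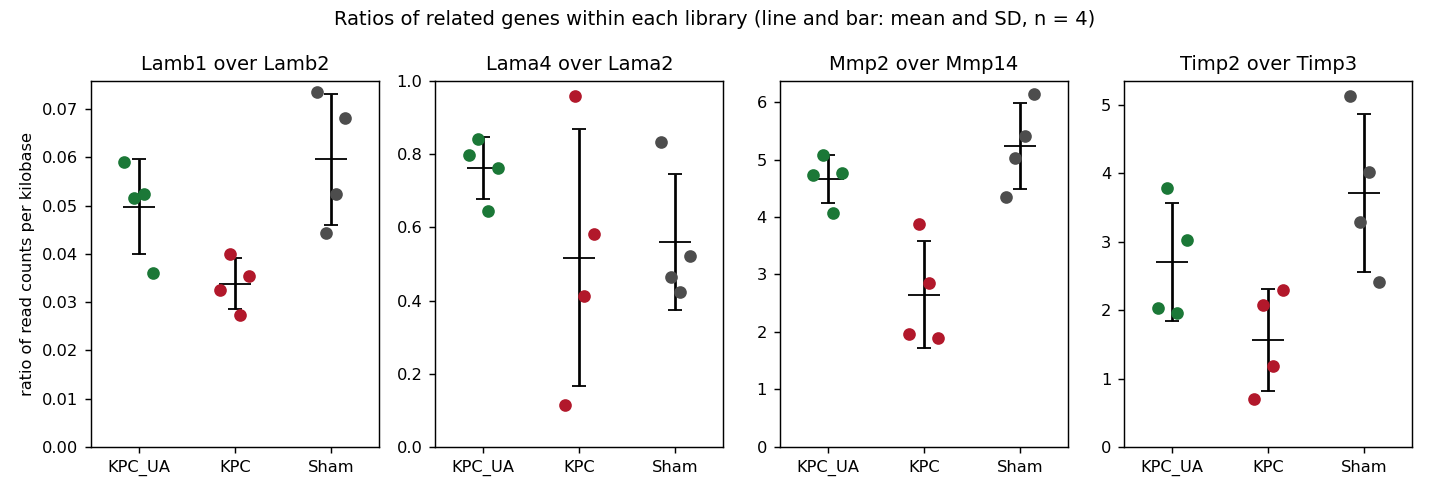
Points are ratios of read counts per kilobase of exon between related genes in each library, with the mean and SD (n = 4) of each group. Mmp2 over Mmp14 averages 4.66 in KPC_UA, 2.65 in KPC and 5.23 in Sham libraries, and in the panel of Lama4 over Lama2 the KPC libraries range from 0.115 to 0.958.

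Levels between genes were compared as normalised reads per kilobase of exon. Sparc was first in both groups, with 575 ± 72.2 in KPC against 1129 ± 118 in Sham muscle (SD, n = 4 each). Sparcl1 was second, with 567 ± 157 in KPC against 997 ± 101 in Sham muscle. Sparc and Sparcl1 did not differ beyond their spread in KPC muscle. Lamb2 was the third in both, at 551 ± 47.4 in KPC and 679.7 ± 66.7 in Sham muscle, followed by Dcn and Timp2, and Vcan was the last of the 39 in both. Lum ranked 23 of 39 in KPC and 13 in Sham muscle, and Timp3 ranked 8 in KPC and 14 in Sham muscle.

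Other genes of the same system were read from lists that do not include the members. Of 55 other matrix proteins, 49 were tested in KPC against Sham, 2 fell by limma (Spon2 and Smoc2) and 0 rose, with a median of -0.76, and DESeq2 called 17 lower and 1 higher. Spon2, spondin-2, had 5.27, 2.25, 1.11 and 1.53 normalised reads in KPC against 60.02, 28.3, 25.2 and 34.1 in Sham libraries, which did not overlap (log2 fold change -3.46, limma adjusted p = 0.0255). Smoc2, a relative of SPARC that is also on the fibroblast list, had a log2 fold change of -1.16 (limma adjusted p = 0.0371). Of 40 other proteases and inhibitors, 34 were tested, 1 fell and 0 rose by limma, with a median of -0.54, and DESeq2 called 12 lower and 1 higher. That gene was Adamts20, a secreted metalloproteinase with thrombospondin repeats, which had 10.5, 19.1, 31.0 and 9.95 in KPC against 68.3, 105, 101 and 135 in Sham libraries (log2 fold change -2.57, limma adjusted p = 0.0321). Matrix receptors had a median of -0.20 over 22 genes, and TGF-beta ligands and receptors of 0.024 over 11, with 0 limma calls in either list. Among the receptors DESeq2 called 2 lower and 1 higher, and among the TGF-beta genes 2 lower (Tgfb3, log2 fold change -0.67, and Tgfb2, -1.48). The 16 collagens had a median of -1.72, 7 fell and 0 rose by limma, 13 fell and 0 rose by DESeq2, and Col1a1 had a log2 fold change of -2.09 (limma adjusted p = 0.0323).

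In KPC_UA against KPC muscle, most matrix transcripts had positive log2 fold changes but 0 of 38 members passed limma in either direction, as did 0 of the 13522 genes tested (0% of all genes). Timp1 is not listed in this table. DESeq2 and edgeR also called 0 members, while DESeq2 called 0.208% of all genes higher and 0.563% lower. At an unadjusted limma p under 0.05, 14 of 38 members were higher and 0 lower, against 6.18% of all genes higher and 6.49% lower. The median log2 fold change was 0.51 over the members and -0.0037 over all genes, and 32 of 38 were positive, as were 49.7% of all genes, with 6 negative against 50.3%. The member median was 0.33 without KPC_UA replicate 1 and 0.64 without KPC replicate 2. In 8 of 38 members (Emilin1, Lamb1, Ltbp4, Lum, Mfap5, Nid2, Timp2 and Tnxb) every KPC_UA library lay above every KPC library, a pattern of 3.78% of all genes, and in 0 every one lay below, a pattern of 4.14%. The KPC libraries here are those compared with Sham above, so the comparisons are not independent of each other.

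Lum had 296, 185, 174 and 149.9 normalised reads in KPC_UA replicates 1 to 4, against 43.5, 134, 78.7 and 91.9 in KPC replicates 1 to 4 (log2 fold change 1.26, SE 0.35, limma adjusted p = 0.382). Mfap5 had 146, 97.1, 81.2 and 95.7 in KPC_UA against 42.2, 75.2, 53.2 and 43.6 in KPC libraries (log2 fold change 0.96, SE 0.27). Ltbp4 had 1764, 1355, 1025 and 1258 in KPC_UA against 473, 935, 917 and 702 in KPC libraries (log2 fold change 0.86, SE 0.26). None of these 3 overlapped between the groups, and the lowest KPC_UA library came within a short distance of the highest KPC library for each. Timp2 had 1206, 1308, 1140.2 and 1465 in KPC_UA against 689, 1136, 807 and 870.4 in KPC libraries (log2 fold change 0.57, SE 0.19), with KPC replicate 2 just under the lowest KPC_UA value. Lamb1 had 411, 288, 312 and 229 in KPC_UA against 158, 218, 164 and 198 in KPC libraries (log2 fold change 0.73, SE 0.22). Tnxb had 1095, 710, 760 and 812 in KPC_UA against 389.9, 639.8, 559.8 and 626 in KPC libraries (log2 fold change 0.62). Nid2 had 143, 110, 104 and 99.6 in KPC_UA against 59.3, 83.1, 98.7 and 49.0 in KPC libraries (log2 fold change 0.69). Emilin1, a glycoprotein at the surface of elastic fibres, had a log2 fold change of 0.77. None of the 8 passed the adjusted threshold.

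Values that overlapped included those of genes with large spread. Fbn1 had 759.8, 419, 308 and 325 normalised reads in KPC_UA against 182, 358, 289 and 119 in KPC libraries, and KPC replicate 2 exceeded KPC_UA replicates 3 and 4 (log2 fold change 0.96, limma adjusted p = 0.382). Sparc had 4163, 3753, 2288 and 2606 in KPC_UA against 2101, 2348, 1825 and 2432 in KPC libraries, which crossed at KPC replicates 2 and 4 (log2 fold change 0.52, limma adjusted p = 0.382). Hspg2 had 6006, 2714, 3438 and 2871 in KPC_UA against 2183, 2852, 2728 and 2215 in KPC libraries (log2 fold change 0.53). KPC_UA replicate 1 was far above the other 3, of which replicate 2 lay inside the KPC range. Postn had 258, 85.9, 72.2 and 80.9 in KPC_UA against 29.0, 103, 44.3 and 13.01 in KPC libraries (log2 fold change 1.52). Mgp had 317, 300, 215 and 293 in KPC_UA against 107, 179.6, 115 and 269 in KPC libraries (log2 fold change 0.83). Bgn had 743, 496, 402 and 426 in KPC_UA against 324, 484, 368 and 220.5 in KPC libraries (log2 fold change 0.58), and Mmp2 564, 490.4, 381 and 378 in KPC_UA against 315, 394, 274 and 270.2 in KPC libraries (log2 fold change 0.53). Those of Thbs1, Mmp14 and Timp3 were negative, at -0.50, -0.34 and -0.31, and that of Thbs1 turned to 0.035 without KPC replicate 1. By role, the medians were 0.47 for proteoglycans, 0.35 for elastic fibre and microfibril genes, 0.41 for basement membrane, 0.56 for adhesive and matricellular genes and 0.11 for proteases and inhibitors. Collagens had a median of 1.10, fibroblast and progenitor markers of 0.50 and endothelial markers of 0.12, with 0 calls by limma. Tendon markers had a median of 1.03 with 7 of 7 positive, adipocyte markers of 0.78 over 5 genes and erythroid markers of -0.24 over 6, also with 0 limma calls. DESeq2 called 1 endothelial marker lower (Cldn5, adjusted p = 0.0074) and 1 adipocyte marker higher (Plin1, adjusted p = 0.0182). It called 0 collagens and 0 fibroblast, tendon or erythroid markers. Adamts20 had a log2 fold change of 1.99 and passed DESeq2 (adjusted p = 0.0183) but not limma.

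In KPC_UA against Sham muscle, 0 of 39 members passed limma, as did 0 of the 13567 genes tested (0% of all genes), and DESeq2 and edgeR called 0 members, with 0.31% of all genes lower and 0.383% higher by DESeq2. At an unadjusted limma p under 0.05, 17 of 39 members were lower and 0 higher, against 4.41% of all genes lower and 3.53% higher. The median log2 fold change was -0.37 over the members and 0.0089 over all genes, and 35 of 39 were negative against 47.9% of all genes, and 4 positive against 52.1%. In 1 of 39 members every KPC_UA library lay below every Sham library, a pattern of 2.02% of all genes. That gene was Fbln5, named here after its values were seen, with 144, 122, 147 and 109 normalised reads in KPC_UA against 159, 159.5, 172 and 198 in Sham libraries (log2 fold change -0.39, limma adjusted p = 0.498). For the 9 members that fell in KPC muscle, the log2 fold changes in KPC_UA against Sham were -0.80 for Fbn1, -0.66 for Mfap5, -0.46 for Ltbp4, -0.44 for Hspg2, -0.36 for Lamb1, -0.45 for Sparc, -0.48 for Tnxb, -0.52 for Mmp2 and -0.40 for Timp2. These share the Sham libraries with the first comparison. Those of Lamc1 and Lama2 were -0.37 and -0.59. Beside them, the median of KPC_UA against Sham was -0.63 for collagens, -0.29 for fibroblast and progenitor markers, -0.83 for tendon, -0.94 for adipocyte, 1.58 for erythroid and 0.011 for endothelial markers, with 0 limma calls in these lists. DESeq2 called 1 fibroblast and progenitor marker lower (Smoc2, adjusted p = 0.0434) and 1 higher, and 0 genes in the rest of these lists. The part of these cell types was not tested. The summed level of the 39 members was 25801 to 37058 in KPC_UA, 22014 to 25264 in KPC and 33656 to 41297 in Sham libraries, where the top KPC_UA value is that of replicate 1 and the next is 27002.

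**Figure D5:**
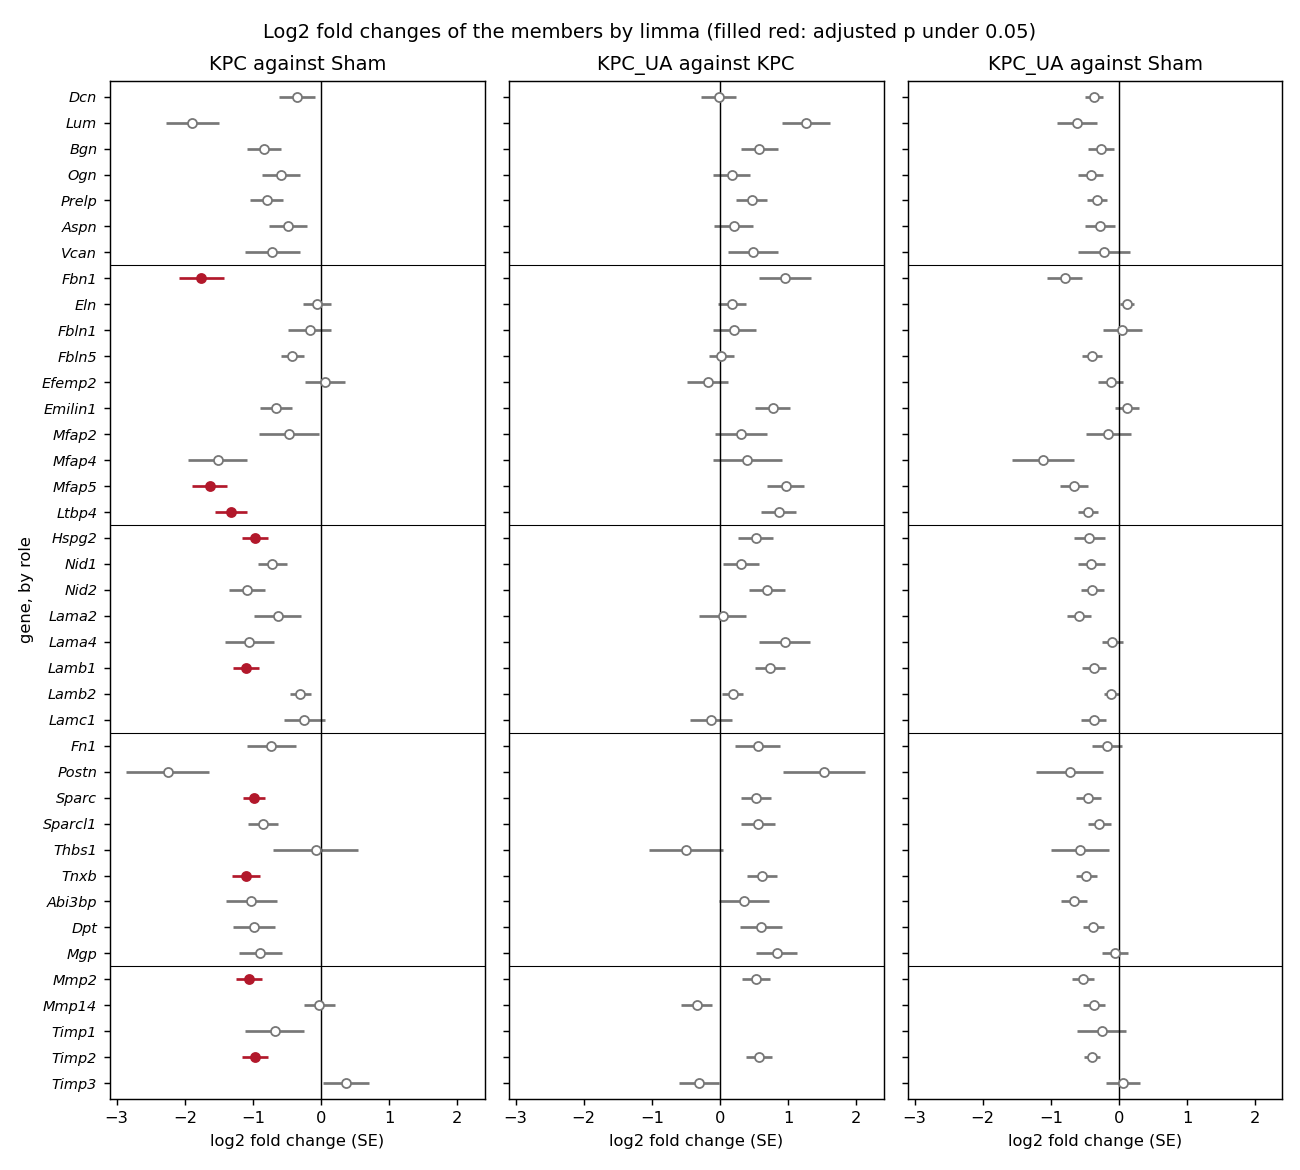
Points are limma log2 fold changes with SE for each member in the 3 comparisons, filled in red where the adjusted p was under 0.05. The left panel holds 9 red points, all negative, and the other 2 panels hold 0, with medians of 0.51 in the middle panel and -0.37 in the right one. Timp1 has no point in the middle panel.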

How the data were processed

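RNA sequencing of 12 tibialis anterior samples was analysed. The submitters' processing notes name bcl2fastq 2.17, featureCounts, Subread 1.5.2 and the genome build GRCm38. Aligner, annotation and strand setting are each not given in the sources used here. Per the file headers, each of the 3 tables that the authors deposited compares a pair of groups and holds a normalised signal for every library, a log2 fold change, a p-value and an adjusted p-value. They list 13578 (KPC against Sham), 13557 (KPC_UA against KPC) and 13583 (KPC_UA against Sham) genes.

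Dividing each column by its smallest step turned 100% of values into whole reads (within 0.01 of a read), so the deposited signal is a read count over a size factor. Levels in the text are these reads divided by size factors over all 12 libraries, while tests used each deposited table on its own. Genes were tested two-sided with limma 3.58.1 (R 4.3.3), fitted with a trend in the variance and robustly, on log2(value + 1), keeping genes whose mean reached 10, with Benjamini-Hochberg adjusted p under 0.05 over all genes. On that scale the changes of genes with few reads come out too small. All 39 members passed the filter in each table that lists them. The count test, DESeq2 1.42.0 on the recovered reads, called 1595 genes (KPC against Sham), 100 genes (KPC_UA against KPC) and 94 genes (KPC_UA against Sham). edgeR 4.0.16 quasi-likelihood tests were also run. Of these steps, only the limma test was tried on simulated counts, for KPC against Sham. Coordinates and exon lengths come from GENCODE M21 (GRCm38, counted from 1), and promoters from RefSeq (GRCm38.p6).

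The members and gene lists were chosen with earlier results of these data known. Values per library are given for members called by limma and, in each role group, for the 2 with the smallest p and the 1 with the largest in KPC against Sham and the 2 with the smallest p in KPC_UA against KPC. Other members named with values were chosen after these were seen. Up to 3 genes per other list, those with the smallest p in KPC against Sham, could be named, and Col1a1. Alternatives were other pseudocounts, filters, scalings, variance models, tests, a replicate block, a correction for exon length and leaving out each library. Columns of other samples numbered 0.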

Additional observations from a re-analysis of the deposited data

Results flagged for a closer look

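In 117 sets of 4 libraries (39 members in 3 groups), 8 held a library whose gap to the nearest other library, divided by the range of its group, exceeded Dixon's critical value for sets of 4, and chance gives about 1 in 20 such sets. No explanation of these values was tested. Ogn, osteoglycin, was lowest in KPC_UA replicate 3 at 159.7 normalised reads, against 226 to 239 in the other KPC_UA libraries. Ogn was also highest in KPC replicate 2 at 318, against 146 to 167 in the other KPC libraries. Eln was highest in KPC replicate 4 at 687, against 394 to 429 in the rest of that group. Lamc1 was highest in KPC replicate 1 at 3247, against 1292 to 1448 in the rest. Lama2 was lowest in Sham replicate 1 at 619.8, against 925 to 975 in the other Sham libraries. Mfap2, a small microfibril-associated glycoprotein, was highest in Sham replicate 2 at 47.2, against 16.4 to 20.1 in the others. Postn was highest in KPC_UA replicate 1 at 258, against 72.2 to 85.9 in the other KPC_UA libraries, and highest in Sham replicate 4 at 457, against 121 to 136 in the other Sham libraries.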

How the results depend on the processing

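The number of members lower in KPC against Sham was 9 as reported, 18 by DESeq2, 18 in the authors' deposited table, 16 by edgeR over all 12 libraries and 5 by limma without trend or robust estimation, where 0.827%, 5.03%, 5.03%, 4.49% and 0.849% of all genes were lower in that order. It was 8 to 10 under the other pseudocounts, filters, scalings, exon-length correction and edgeR within the table. In these fits 0.588% to 1.26% of all genes were lower. Leaving out each library in turn gave 0 to 21 members by limma and, in an alternative chosen after seeing the data, 11 to 22 by DESeq2, with 14 each without KPC replicate 3 or 4, 16 without KPC replicate 1 and 22 without KPC replicate 2. With a library left out, 0% to 5.54% of all genes were lower by limma and 2.14% to 9.19% by DESeq2. The cause of the differences in member counts was not tested. In KPC_UA against KPC and KPC_UA against Sham the number was 0 under every alternative run. Over all alternatives the median log2 fold change of the members stayed between -0.96 and -0.70 for KPC against Sham, 0.33 and 0.64 for KPC_UA against KPC, and -0.46 and -0.29 for KPC_UA against Sham.

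With the replicate number as a block, 0 members passed in KPC against Sham, and 43 genes fell and 23 rose in the whole table. The correlation of deviations between same-numbered libraries was -0.26 to 0.13. With 4 libraries a group this cannot tell whether the numbers pair the samples, and the labels do not say.

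Under at least 1 alternative, signs turned for 4 members (KPC against Sham), 8 members (KPC_UA against KPC) and 6 members (KPC_UA against Sham), none of them called in that comparison. In KPC against Sham, Thbs1 was 0.079 by DESeq2 and in the authors' deposited table, 0.048 by edgeR, 0.045 by edgeR over all 12 libraries, and -0.61 to 0.35 with each library left out, positive at 0.0028 to 0.35 without KPC replicate 2, KPC replicate 4, Sham replicate 3 or Sham replicate 4. Eln ranged from -0.25 to 0.020 with each library left out, positive at 0.0011 and 0.020 without KPC replicate 1 or 3. Efemp2 ranged from -0.18 to 0.25, negative at -0.18 to -0.0081 without KPC replicate 1, KPC replicate 4 or Sham replicate 3. Mmp14 ranged from -0.15 to 0.090, positive at 0.020 to 0.090 without KPC replicate 2, KPC replicate 3, Sham replicate 1 or Sham replicate 2. For KPC_UA against KPC, Thbs1 ranged from -0.93 to 0.035 with each library left out, positive without KPC replicate 1. Lama2 there was 0.041 as reported, -0.095 by DESeq2 and -0.072 by edgeR, Dcn turned with the exon-length correction and quantile normalisation (0.016 and 0.16 against -0.018 as reported), and the other 5 members (Aspn, Fbln1, Fbln5, Efemp2 and Lamc1) turned with a single library left out, Fbln5 and Lamc1 also under quantile normalisation. In KPC_UA against Sham, Vcan, Fbln1, Mfap2, Fn1 and Timp3 turned with a single library left out, and Mgp ranged from -0.16 to 0.13, positive at 0.072 without KPC_UA replicate 3 and 0.13 without Sham replicate 4. With 4 libraries a group and 22.3 to 32.0 M reads, genes with under 81 reads over the 8 libraries of a table are not listed and were not analysed here.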

Other observations

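Of the KPC libraries, replicate 1 held the most members above the Sham range. In that library 29 of 39 members lay below the lowest Sham library and 6 above the highest, whereas 28, 34 and 30 lay below and 0, 0 and 3 above in KPC replicates 2, 3 and 4. The same counts over all genes were not made, so these are not read as particular to the members. Among the members far above the rest of the KPC group in replicate 1 were Lamc1 at 3247, Lama2 at 1164, Timp3 at 2038 and Thbs1 at 389 normalised reads. Genes with at least 6 kb of exon minus genes under 2 kb, as a median log2 distance from the Sham mean, gave 0.39 in KPC replicate 1, 0.22, 0.24 and -0.43 in KPC replicates 2, 3 and 4, and -0.40 to 0.21 in Sham libraries. With the exon-length trend removed, all 9 members called in KPC against Sham still passed limma. The part of exon length in the levels of KPC replicate 1 was not tested.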
